A study of Mus musculus with 12 samples.

Results

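The genes described here drive or carry out the mitotic cell cycle. They were chosen by name, and all 44 were rows of the count table of 35976 gene symbols and passed the filter on low counts that left 16166 genes for testing. By role they comprise 9 regulators of G1 phase and 16 genes of DNA replication and nucleotide supply, together the G1/S group of 25 genes, and 11 regulators of G2 phase and mitosis and 8 genes of mitotic structure, together the G2/M group of 19 genes. RNA was sequenced from female mouse primordial germ cells, the embryonic precursors of oocytes, taken at the embryonic stage E14.5 and sorted by an Oct4-GFP reporter, and each library came from 5000 cells. The 12 libraries form 4 groups of 3: WT is wild type, HxD is Tet1HxD/HxD with a catalytically dead TET1, V is Tet1V/V with a TET1 that stalls at 5-hydroxymethylcytosine, and KO is Tet1-/-. TET1 is an enzyme that oxidises 5-methylcytosine in DNA. The labels do not tie the replicates to embryos or litters. A p-value here weighs a difference between groups only against the spread of these libraries within groups, and that spread may be technical.

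In a dividing cell, D-type cyclins with CDK4 and CDK6, and then E-type cyclins with CDK2, release E2F transcription factors from RB, and E2F switches on the genes of DNA replication. The MCM helicase is loaded at origins by CDC6 and CDT1, and CDK1 with cyclins A and B later drives entry into mitosis, after which CDC20 and the anaphase-promoting complex end it. Female germ cells multiply by mitosis and then, at about the age sampled here, stop dividing and enter meiotic prophase through STRA8, with a premeiotic round of DNA replication in between. E2F sites mark many G1/S promoters, and G2/M promoters are known for CHR elements and CCAAT boxes, which bind the MuvB complexes and NF-Y.

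Promoter windows from RefSeq (build GRCm38.p6, 250 bases before to 50 after the start) matched 35 of the 44 members, 19 of the G1/S and 16 of the G2/M group; Ccnd1, Ccnd2, Ccne2, Mcm4, Gins1, Gins2, Ccna2, Foxm1 and Aurkb had none. An E2F core (TTTCGCG or TTTGGCG or TTTCCCG or TTTGCCG), a CHR (TTTGAA or TTCGAA) and CCAAT were searched on both strands. Matches of different strings may overlap. The E2F core was in 42.1% of the G1/S members, 12.5% of the G2/M members and 7.65% of the 27025 genes with a window. The CHR was in 10.5%, 81.2% and 21.7%, and CCAAT in 68.4%, 93.8% and 41.1%, in the same order. A gene counted if any of its windows held the string. These shares were not tested. The windows shown were picked mainly for holding the most kinds of string, so they are examples and not a fair sample of either phase. Each line gives the 250 bases before the start, 5′ to 3′, with matches in capitals. Mcm7 and Mcm5 held the most kinds of string among the G1/S members described in full. Aurka and Bub1 are the first by alphabet of 7 such G2/M members that tied at 2 kinds, and Cdk1 and Ccnd3 were added after their values were seen.
Mcm7 (chr5:138171884-138172133, minus strand): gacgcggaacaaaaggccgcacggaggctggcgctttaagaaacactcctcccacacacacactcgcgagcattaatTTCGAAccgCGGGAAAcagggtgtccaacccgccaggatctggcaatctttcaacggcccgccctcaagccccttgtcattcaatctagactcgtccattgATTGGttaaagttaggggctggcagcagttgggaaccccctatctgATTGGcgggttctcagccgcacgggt
Mcm5 (chr8:75109259-75109508, plus strand): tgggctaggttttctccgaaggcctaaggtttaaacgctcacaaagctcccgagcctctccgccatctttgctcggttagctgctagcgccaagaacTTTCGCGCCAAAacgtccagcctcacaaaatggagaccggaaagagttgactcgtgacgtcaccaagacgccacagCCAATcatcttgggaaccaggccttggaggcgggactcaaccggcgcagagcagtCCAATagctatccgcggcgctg
Aurka (chr2:172370571-172370820, minus strand): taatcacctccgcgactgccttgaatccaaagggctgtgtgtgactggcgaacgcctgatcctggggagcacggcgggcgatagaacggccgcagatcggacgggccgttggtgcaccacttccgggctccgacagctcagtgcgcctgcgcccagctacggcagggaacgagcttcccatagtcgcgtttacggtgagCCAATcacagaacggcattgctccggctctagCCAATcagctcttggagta
Bub1 (chr2:127831860-127832109, minus strand): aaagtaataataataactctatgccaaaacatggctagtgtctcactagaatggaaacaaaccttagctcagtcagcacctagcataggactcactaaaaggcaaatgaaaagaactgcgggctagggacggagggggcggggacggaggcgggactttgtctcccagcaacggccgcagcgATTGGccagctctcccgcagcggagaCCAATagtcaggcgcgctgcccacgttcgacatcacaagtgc
Cdk1 (chr10:69352913-69353162, minus strand): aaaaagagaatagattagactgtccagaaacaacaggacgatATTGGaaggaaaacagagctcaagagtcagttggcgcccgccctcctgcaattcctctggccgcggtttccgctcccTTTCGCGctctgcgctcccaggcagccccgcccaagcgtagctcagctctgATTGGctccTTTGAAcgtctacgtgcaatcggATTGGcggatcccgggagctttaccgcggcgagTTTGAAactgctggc
Ccnd3 (chr17:47593217-47593466, plus strand): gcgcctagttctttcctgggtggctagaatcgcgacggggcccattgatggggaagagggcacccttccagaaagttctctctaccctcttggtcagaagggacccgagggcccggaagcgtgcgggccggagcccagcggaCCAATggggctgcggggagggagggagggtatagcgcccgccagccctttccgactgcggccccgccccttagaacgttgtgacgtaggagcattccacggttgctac
In Mcm5, a subunit of the replicative helicase, the first capitals are an E2F core on each strand, beginning 153 and 148 bases before the start. Cdk1, the mitotic kinase, held an E2F core, 2 CHR strings at 71 and 15 bases before the start, and 3 CCAAT strings. In Aurka and Bub1, which encode a spindle pole kinase and a spindle checkpoint kinase, the capitals are CCAAT in either orientation, and the CHR began 32 and 14 bases past the start. For Mcm5 and Aurka, a stretch just past the start was not found in an annotated transcript, so distances from those starts are less certain. Ccnd3, which encodes cyclin D3, held a single CCAAT here. Mcm7 and Ccnd3 each had another window, and the one with the most kinds of string is shown. The other window held only CCAAT in Mcm7 and none of the strings in Ccnd3. A match is a description of letters, and no binding or methylation was measured in these libraries.

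Total counts ranged from 18471158 to 29495313 per library, and the 44 members took 0.931% (WT1) to 1.25% (KO2) of them. Levels are given as CPM, which scales each library to a common total. Of 2936 weakly expressed genes, with a mean of 1 to 5 CPM, 43.7% were at 0 in the library HxD1, 45.7% in KO3 and 27.1% in KO1, against 1.77% to 24.4% elsewhere, so low members are measured least well in those 3 libraries. All 10 germ cell markers were detected in every library, from Nanos3 at 6.42 to 16.5 CPM to Dazl at 553 to 1923 CPM. Of them 2, Dazl and Mael, were called lower in each mutant group, and 0, 1 and 1 were called higher in HxD, KO and V. Of all tested genes 0.0309%, 1.22% and 0.155% were called in either direction. In each mutant group 7 of the 10 markers had log2 fold changes above 0. The summed level of 15 gonadal somatic markers was 7.79 to 48.2 CPM, highest in V1. Among them, Sox9 was at 0 in 11 libraries and Foxl2 in 7. Others were found more widely: Wnt4 was detected in every library, and Bmp2 was at 0 in 1 library and Pdgfra in 2. Bmp2 reached 12.8 CPM in WT1 and Col3a1 13.98 CPM in V1, so a low level of somatic RNA was present. Of 13 blood and endothelial markers, Pecam1, which germ cells also express, made up most of the sum. Tet1 itself was at 91.4, 180.1 and 215 CPM in WT, 227, 222 and 286 in HxD, 131, 158 and 80.8 in KO and 226, 197 and 192 in V; the KO and WT ranges overlapped, so gene-level counts do not check the label of this allele.

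Of the 44 members, 1 was called in KO against WT, where 1.22% of all tested genes were called (edgeR quasi-likelihood test, Benjamini-Hochberg adjusted p under 0.05 over all 16166 genes). That member was Ccnd3, which rose. No member was called in HxD, where 0.0309% of all genes were, or in V, where 0.155% were. At an unadjusted p under 0.05 the members numbered 7 in HxD, 7 in KO and 8 in V, against 7.25%, 13.2% and 9.69% of all genes. DESeq2 called 0, 2 and 1 of them and limma-voom 0, 1 and 0. In the mean of the 3 mutant groups against WT, Ccnd3 was again the 1 member called, against 1.22% of all genes. All 3 mutant groups are compared with the same 3 WT libraries, so their results are not independent of each other.

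The members varied little between libraries. The SD of log2 CPM over the 12 libraries had a median of 0.233 for the 44 members, 0.584 for all tested genes and 0.308 for those tested genes whose mean reached 20 CPM. By role the medians were 0.431 for G1 regulators, 0.202 for replication, 0.233 for G2/M regulators and 0.246 for mitotic structure. Mcm5 had the smallest SD, 0.071, and Ccnd2, Ccnd1 and Ccne2 the largest, 1.25, 0.990 and 0.897. CPM is not corrected for gene length, so levels are compared below within a gene and not between genes.

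**Figure D1:**
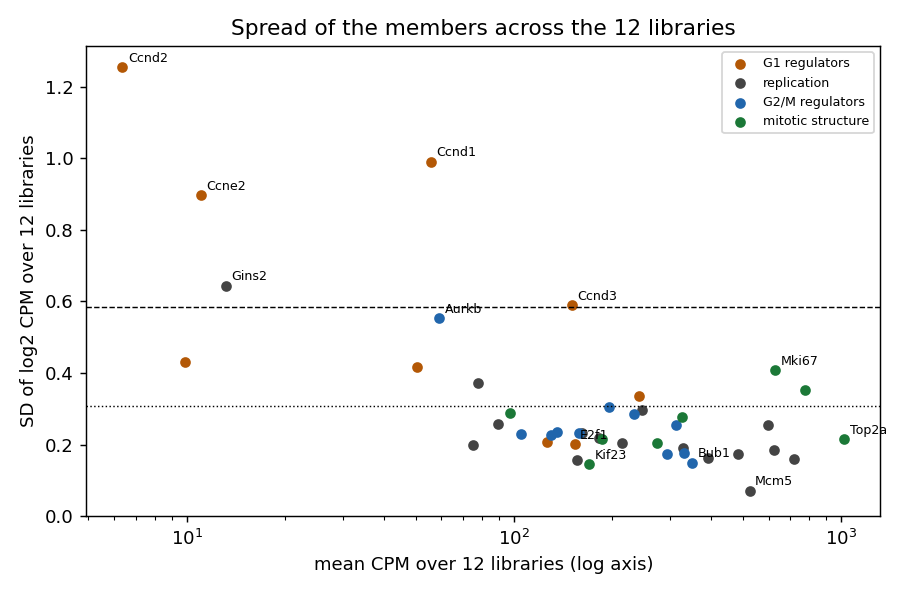
SD of log2 CPM over the 12 libraries against mean CPM (log axis) for the 44 members, coloured by role; the dashed line is the median SD of all tested genes (0.584) and the dotted line that of genes whose mean reached 20 CPM (0.308). Most members lie below the dotted line, and Ccnd2, Ccnd1, Ccne2, Gins2 and Ccnd3 have the largest SD.

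The D-type cyclins carry growth signals into G1 by activating CDK4 and CDK6. Ccnd3 was at 50.02, 98.7 and 112 CPM in WT, 121, 159.6 and 178 in HxD, 152, 216 and 212 in KO and 142, 191 and 173 in V. All 9 mutant libraries lay above all 3 WT libraries, and WT1 was the lowest of the 12. Against WT, HxD had a log2 fold change of 0.82 ± 0.23, KO of 1.15 ± 0.23 and V of 0.96 ± 0.23 (SE), with edgeR adjusted p of 0.325, 0.0130 and 0.0818. Over the mean of the mutants the value was 0.97 ± 0.20 (SE), with an edgeR adjusted p of 0.0118. The call in KO was lost without WT1 (log2 0.87, adjusted p = 0.0879), without KO2 (1.06, adjusted p = 0.0563) and without the trio HxD1, KO1 and KO3 (1.31, adjusted p = 0.0850). The last leaves KO2 as the only KO library, so the spread in that fit comes from the remaining groups, and the fold was no smaller than with all 3. The call over the mean was lost without WT1 (0.70, adjusted p = 0.162) and without WT2 (1.07, adjusted p = 0.0552). In V, Ccnd3 was called by DESeq2 (adjusted p = 0.0356) and without WT3 (1.18, adjusted p = 0.0258).

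Ccnd1, which encodes cyclin D1, was at 90.7, 99.3 and 67.4 CPM in WT, 68.2, 37.4 and 50.7 in HxD, 75.2, 24.7 and 9.42 in KO and 22.97, 68.2 and 54.7 in V. WT3 was within the range of the mutants, and the KO libraries spread most, from KO1 among the high values to KO3 as the lowest of the 12. HxD, KO and V gave log2 fold changes of -0.72 ± 0.43, -1.23 ± 0.44 and -0.82 ± 0.43 (SE), with edgeR adjusted p of 0.764, 0.184 and 0.554. With these adjusted p it was not called. Without KO1 the KO value was -2.33 (edgeR adjusted p = 0.00847), which passed, as did that over the mean of the mutants (-1.29, edgeR adjusted p = 0.0151). Over the mean, limma-voom on all libraries called it too (-1.06, adjusted p = 0.0475). With no filter on low counts edgeR called it in KO (-1.26, adjusted p = 0.000242) and over the mean (-0.93, adjusted p = 0.000425). Ccnd2, which encodes cyclin D2, was at 11.2, 9.43 and 13.02 CPM in WT, 3.24, 6.04 and 3.88 in HxD, 0.381, 4.43 and 5.37 in KO and 7.69, 7.17 and 4.32 in V. All 3 WT libraries lay above all 9 mutant libraries, with 10 counts in the lowest library, KO1. On the log2 scale the difference from WT was -1.35 ± 0.87 in HxD, -1.72 ± 0.88 in KO and -0.81 ± 0.86 in V (SE; edgeR adjusted p of 0.800, 0.398 and 0.885). The 2 cyclins thus had log2 fold changes below 0 in each mutant group while that of Ccnd3 was above 0. Only Ccnd3 was called by edgeR with the low-count filter and all 12 libraries.

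The ratio of Ccnd3 counts to Ccnd1 counts was 0.551, 0.994 and 1.67 in WT, 1.78, 4.27 and 3.52 in HxD, 2.03, 8.77 and 22.5 in KO and 6.20, 2.81 and 3.16 in V. The ratio uses raw counts without a length correction, so it compares libraries and not the amounts of the 2 transcripts. It was higher in each mutant library than in any WT library, though HxD1 at 1.78 was close to WT3 at 1.67. It was calculated after the values of both genes were seen and was not tested. In bulk RNA, fewer cells of one kind and less RNA per cell cannot be told apart, here and in the results that follow.

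**Figure D2:**
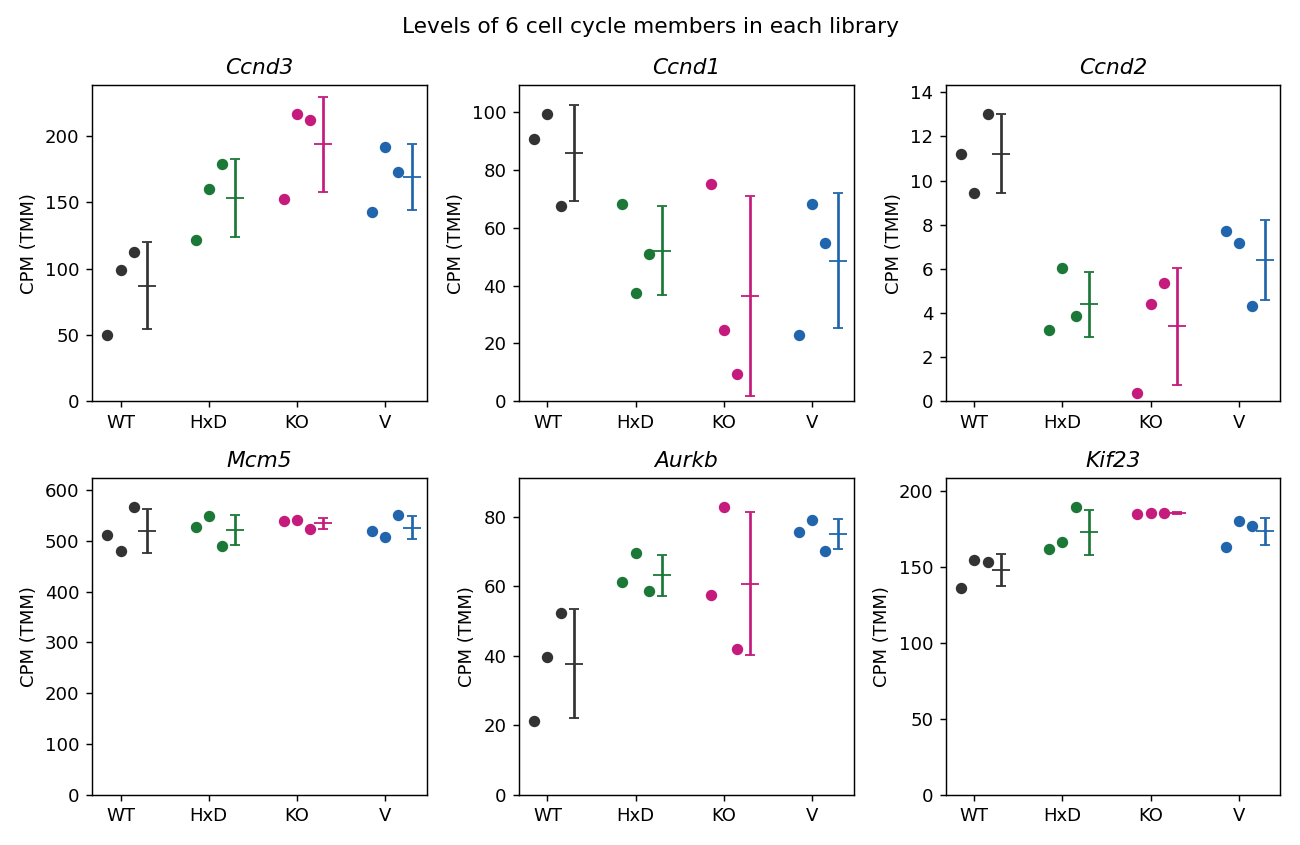
CPM of Ccnd3, Ccnd1, Ccnd2, Mcm5, Aurkb and Kif23 in each library, by group, with the group mean and SD (n = 3) beside the points; every axis starts at 0. Ccnd3 and Kif23 were higher and Ccnd2 lower in all 9 mutant libraries than in all 3 WT libraries, while Mcm5 stayed between 480.0 and 567 CPM.

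The E-type cyclins activate CDK2 at the start of S phase. Ccne1 was at 120.0, 97.3 and 97.2 CPM in WT, 155, 135 and 129.5 in HxD, 132, 118 and 149 in KO and 134, 127 and 117 in V, with the HxD libraries above all WT libraries and the KO and V ranges overlapping WT. The log2 fold changes from WT were 0.41 ± 0.18 in HxD, 0.34 ± 0.18 in KO and 0.26 ± 0.18 in V (SE), with edgeR adjusted p of 0.639, 0.409 and 0.681. Ccne2 was at 20.4, 22.8 and 7.57 CPM in WT, 7.22, 15.2 and 12.3 in HxD, 11.4, 11.8 and 2.77 in KO and 5.00, 4.58 and 11.9 in V, with every group overlapping WT and log2 fold changes of -0.55 ± 0.62, -0.97 ± 0.63 and -1.24 ± 0.63 in HxD, KO and V (SE). Cdk2 in KO (65.9, 65.7 and 61.2 CPM) lay above WT (48.7, 45.8 and 43.3 CPM), at a log2 fold change of 0.48 ± 0.27 (SE) that was not called. Cdkn1b, which encodes the CDK inhibitor p27, was between 5.22 and 15.8 CPM, with overlapping groups.

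E2f1, a transcription factor that activates replication genes, had the smallest SD of the G1 regulators (0.202). It was at 164, 119 and 162 CPM in WT, 157, 139.7 and 138 in HxD, 135, 146 and 136 in KO and 185, 189.6 and 169 in V. The 3 V libraries were the highest of the 12, at a log2 fold change from WT of 0.29 ± 0.17 (SE, edgeR adjusted p = 0.623). Mybl2, which encodes B-MYB and links the G1/S and G2/M waves of transcription, was at 141, 174 and 231 CPM in WT, 230.2, 222 and 270.1 in HxD, 256, 292 and 306 in KO and 316, 241 and 221 in V. All KO libraries lay above all WT libraries, and WT1 was the lowest of the 12. Against WT, HxD had a log2 fold change of 0.40 ± 0.19, KO of 0.65 ± 0.19 and V of 0.51 ± 0.19 (SE), with edgeR adjusted p of 0.685, 0.0898 and 0.334. In KO it was called by DESeq2 (adjusted p = 0.0460) and without WT3 (0.86, adjusted p = 0.0244).

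None of the 16 replication genes was called in any comparison, and their median log2 fold change was 0.05, 0.15, 0.15 and 0.12 in HxD, KO, V and the mean of the mutants, against -0.01, -0.02, 0.00 and -0.03 for all tested genes. The 6 MCM subunits form the helicase that opens the DNA. Mcm5 was at 512, 480.0 and 567 CPM in WT, 528, 549 and 490.3 in HxD, 539.6, 542 and 523 in KO and 519, 508 and 551 in V, so the groups overlapped throughout. Its SD of 0.071 was the smallest of the members, where the lowest of any tested gene was 0.0648, and the 95% intervals of its log2 fold change were -0.31 to 0.32 in HxD, -0.28 to 0.36 in KO and -0.30 to 0.33 in V. Mcm2, Mcm3, Mcm4 and Mcm6 had log2 fold changes between -0.12 and 0.20 across the 3 mutants. Mcm7 was the widest of the 6, at 393, 481 and 643 CPM in WT, 664, 571 and 586 in HxD, 692, 658 and 525 in KO and 741, 650.3 and 583 in V, with WT1 and WT2 the lowest of the 12 and WT3 inside the mutant range. HxD, KO and V gave log2 fold changes of 0.26 ± 0.18, 0.31 ± 0.18 and 0.38 ± 0.18 (SE), with edgeR adjusted p of 0.835, 0.473 and 0.505.

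Most licensing and initiation factors were as even, Gins2 apart. Cdc6 and Cdt1, which load the helicase, had log2 fold changes of -0.18 ± 0.21 and -0.01 ± 0.18 in KO (SE), and Pcna, the sliding clamp of the polymerases, one of 0.21 ± 0.18. Gins1, a subunit of the active helicase, had one of -0.17 ± 0.21. Gins2, its partner subunit, had the largest SD of the class (0.644) and was at 14.4, 8.72 and 5.78 CPM in WT, 12.1, 11.7 and 9.25 in HxD, 11.6, 6.63 and 17.7 in KO and 16.5, 30.5 and 13.5 in V. V2 was the highest of the 12 libraries and WT3 the lowest. On the log2 scale the difference from WT was 0.19 ± 0.52 in HxD, 0.31 ± 0.52 in KO and 1.06 ± 0.52 in V (SE; edgeR adjusted p of 0.999, 0.862 and 0.520). Pola1 and Prim1, of the primase complex, did not pass the test either, though Pola1 was higher in all V libraries (190.2, 201 and 206 CPM) and Prim1 in all KO libraries (188, 179 and 182 CPM) than in WT (152, 166 and 185 and 157, 151 and 123 CPM).

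Nucleotide supply is the last role of the replication class. Rrm2, the regulatory subunit of ribonucleotide reductase, was at 147, 214 and 225 CPM in WT, 245, 289 and 257 in HxD, 282, 332 and 225 in KO and 209, 264 and 261 in V. All HxD and KO libraries were above all WT libraries, V1 was not, and WT1 was the lowest of the 12. KO3 at 224.99 CPM was nearly level with WT3 at 224.85 CPM. The log2 fold changes from WT were 0.44 ± 0.19 in HxD, 0.52 ± 0.19 in KO and 0.33 ± 0.19 in V (SE), with edgeR adjusted p of 0.639, 0.201 and 0.591. Rrm1, the catalytic subunit, had log2 fold changes of 0.01 ± 0.18, -0.01 ± 0.18 and 0.17 ± 0.18 in the same order (SE). Tyms, which makes thymidylate, was at 58.3, 65.2 and 75.5 CPM in WT, 43.1, 76.3 and 86.5 in HxD, 83.7, 91.5 and 98.7 in KO and 99.2, 57.6 and 93.6 in V, with KO above WT and the other groups overlapping it. Against WT, HxD had a log2 fold change of 0.05 ± 0.24, KO of 0.46 ± 0.24 and V of 0.33 ± 0.24 (SE), with edgeR adjusted p of 0.999, 0.412 and 0.720.

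Of the 11 G2/M regulators none was called in any comparison. Their median log2 fold change was 0.13, 0.17, 0.38 and 0.23 in HxD, KO, V and the mean of the mutants, and 9, 8, 9 and 8 of the 11 were above 0, against 49.3%, 48.6%, 49.8% and 47.5% of all genes. Aurkb, the kinase of the chromosomal passenger complex, had the largest SD of the class (0.553) and was at 21.2, 39.7 and 52.4 CPM in WT, 61.1, 69.6 and 58.6 in HxD, 57.6, 82.9 and 42.00 in KO and 75.8, 79.01 and 70.3 in V. All HxD and V libraries lay above WT, KO3 did not, and WT1 was the lowest of the 12. HxD, KO and V gave log2 fold changes of 0.74 ± 0.27, 0.69 ± 0.27 and 0.99 ± 0.27 (SE), with edgeR adjusted p of 0.551, 0.255 and 0.146. Over the mean of the mutants it was 0.81 ± 0.23 (SE, edgeR adjusted p = 0.0868), and without WT3 the V value passed (1.30, adjusted p = 0.0369). The value over the mean passed without KO3 (0.88, adjusted p = 0.0449) and without WT3 (1.12, adjusted p = 0.0228).

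Aurka, the kinase of the spindle poles, was at 112, 131 and 150.0 CPM in WT, 189, 174 and 156 in HxD, 135, 155 and 155 in KO and 167, 201 and 169.8 in V, with the HxD and V libraries above all WT libraries and KO overlapping. On the log2 scale the difference from WT was 0.40 ± 0.18 in HxD, 0.18 ± 0.18 in KO and 0.45 ± 0.18 in V (SE; edgeR adjusted p of 0.660, 0.717 and 0.379). Ccna2, the cyclin of S and G2 phase, was at 204, 242 and 334 CPM in WT, 304, 288 and 299 in HxD, 348, 363 and 356 in KO and 364, 325 and 335 in V. All KO libraries were above WT, WT3 lay above all HxD libraries and inside the V range, and WT1 was the lowest of the 12. The log2 fold changes from WT were 0.19 ± 0.17 in HxD, 0.45 ± 0.17 in KO and 0.39 ± 0.17 in V (SE), with edgeR adjusted p of 0.953, 0.235 and 0.464. Without WT3 the KO value of Ccna2 passed (0.67, adjusted p = 0.0460). Ccnb1, a cyclin of mitotic entry, was at 120.3, 153 and 193 CPM in WT, 202, 205 and 211 in HxD, 207, 214 and 234 in KO and 249.8, 146 and 209 in V; HxD and KO were above WT, and V2 was not. Against WT, HxD had a log2 fold change of 0.41 ± 0.20, KO of 0.49 ± 0.20 and V of 0.38 ± 0.20 (SE), with edgeR adjusted p of 0.685, 0.256 and 0.546.

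Ccnb2, the second B-type cyclin, had log2 fold changes of -0.03 ± 0.17, -0.09 ± 0.17 and 0.11 ± 0.17 in HxD, KO and V (SE). Cdk1 had 0.11 ± 0.19, 0.17 ± 0.19 and 0.41 ± 0.19, and its V libraries (166, 167 and 145 CPM) lay above all WT libraries (125, 99.6 and 135 CPM). Bub1 had the smallest SD of the class (0.150) and was at 372, 359 and 320.3 CPM in WT, 392, 359 and 313 in HxD, 355, 386 and 331 in KO and 335, 284 and 404 in V, with overlapping groups. Bub1b, of the same checkpoint, had log2 fold changes of 0.27 ± 0.19, 0.36 ± 0.19 and 0.39 ± 0.19. The mitotic kinase Plk1, the transcription factor Foxm1 and Cdc20, which activates the anaphase-promoting complex, had values between -0.30 (Foxm1 in KO) and 0.13 across the 3 mutants. The values for Ccnb1 were thus above 0 in all 3 groups and those for Ccnb2 close to 0, a difference between genes that was not tested.

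Of the 8 genes of mitotic structure none was called in any comparison, with median log2 fold changes of 0.16, 0.23, 0.23 and 0.17 in HxD, KO, V and the mean of the mutants. Kif23, a kinesin of the central spindle and cytokinesis, had the smallest SD of the class (0.146) and was at 136, 155 and 153 CPM in WT, 162, 167 and 189.7 in HxD, 185, 186 and 186 in KO and 163, 181 and 177 in V. All 9 mutant libraries were above all 3 WT libraries, by a small margin. HxD, KO and V gave log2 fold changes of 0.22 ± 0.16, 0.33 ± 0.17 and 0.23 ± 0.16 (SE), with edgeR adjusted p of 0.870, 0.394 and 0.714. Kif11, the kinesin that separates spindle poles, was at 193, 286 and 345 CPM in WT, 354, 337 and 312 in HxD, 370.5, 394 and 278 in KO and 320.5, 361 and 365 in V, with WT3 inside the mutant range and WT1 the lowest of the 12. On the log2 scale the difference from WT was 0.28 ± 0.19 in HxD, 0.34 ± 0.19 in KO and 0.34 ± 0.19 in V (SE; edgeR adjusted p of 0.821, 0.444 and 0.574).

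Mki67, the proliferation marker that coats mitotic chromosomes, had the largest SD of the class (0.407) and was at 337, 570.3 and 762 CPM in WT, 500.1, 550.1 and 873 in HxD, 672, 988 and 594 in KO and 635, 493 and 576 in V. WT1 was the lowest of the 12 and KO2 the highest, and all groups overlapped. Its log2 fold changes were 0.20 ± 0.24, 0.43 ± 0.24 and 0.03 ± 0.24 (SE). Cenpf, a kinetochore protein, was at 411, 679 and 869.8 CPM in WT, 833, 706 and 994 in HxD, 839, 1038 and 606 in KO and 769, 813 and 729 in V, with the same lowest and highest libraries. The log2 fold changes from WT were 0.37 ± 0.22 in HxD, 0.34 ± 0.22 in KO and 0.24 ± 0.22 in V (SE), with edgeR adjusted p of 0.750, 0.507 and 0.830. Top2a, the topoisomerase that untangles sister chromatids, and the kinetochore motor Cenpe had log2 fold changes of 0.13 ± 0.18 and 0.03 ± 0.19 in KO (SE). In HxD and V, Top2a was at 0.05 ± 0.18 and 0.03 ± 0.18, and Cenpe at -0.17 ± 0.19 and -0.19 ± 0.19 (SE).

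Birc5, which encodes survivin of the chromosomal passenger complex, was at 99.4, 87.9 and 108 CPM in WT, 94.1, 108 and 84.99 in HxD, 75.6, 65.7 and 85.4 in KO and 138, 117 and 105 in V. The KO libraries lay below all WT libraries and the V libraries overlapped them. Against WT, HxD had a log2 fold change of -0.04 ± 0.19, KO of -0.38 ± 0.19 and V of 0.29 ± 0.19 (SE), with edgeR adjusted p of 0.999, 0.393 and 0.675. V exceeded KO by 0.67 ± 0.19 on the log2 scale (SE, unadjusted p = 0.00172, edgeR adjusted p = 0.945). Cenpa, the centromeric histone, was at 235, 241 and 289 CPM in WT, 284, 299 and 245 in HxD, 246, 233 and 241 in KO and 362, 317 and 295 in V, and the V libraries lay above all WT and KO libraries. V differed from WT by 0.35 ± 0.16 (SE, edgeR adjusted p = 0.504) and from KO by 0.44 ± 0.17 (SE, edgeR adjusted p = 0.945).

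Between the mutant groups no member was called by edgeR, DESeq2 or limma-voom, and 0% of all genes were called by edgeR in each pair. At an unadjusted p under 0.05 there were 0 members between HxD and KO, 3 between V and KO (Birc5, Cenpa and E2f1) and 0 between V and HxD, against 3.18%, 4.62% and 2.02% of all genes. The groups did not overlap for 6, 7 and 5 members, against 8.65%, 11.1% and 9.1% of all genes. For Ccnd3 the 95% interval of the log2 difference was -0.81 to 0.13 between HxD and KO, -0.67 to 0.28 between V and KO and -0.33 to 0.61 between V and HxD, so differences of those sizes cannot be told from 0.

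Against WT, 8 members in HxD, 11 in KO and 10 in V had groups that did not overlap, where 12.2%, 16.5% and 16.2% of all genes did. Of these, 7, 9 and 9 were higher in the mutant, against 6.43%, 8.17% and 8.7% of all genes. Taking the 9 mutant libraries together, 3 members were clear of the 3 WT libraries, namely Ccnd3 and Kif23 above and Ccnd2 below, against 3.84% of all genes. The fold changes with their intervals show how narrow most members were and how wide the weakly expressed Ccnd2, Ccne2, Cdkn1b and Gins2.

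**Figure D3:**
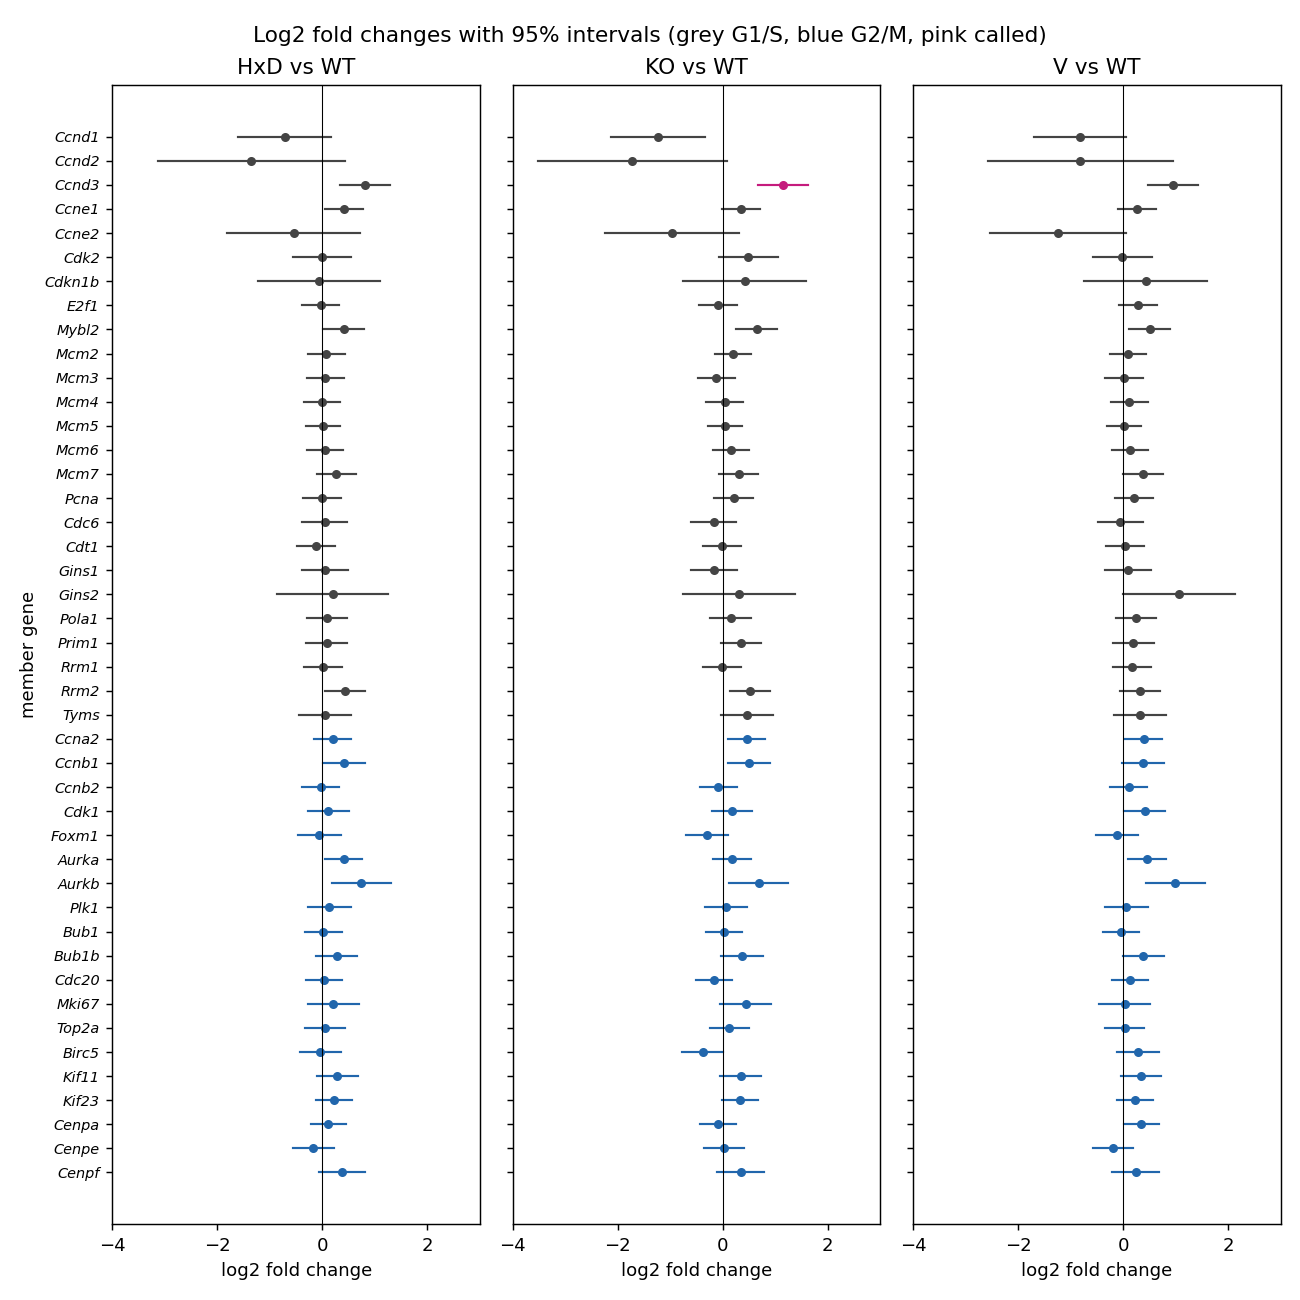
Log2 fold change (x axis) with its 95% interval for each of the 44 members (y axis) in HxD, KO and V against WT; grey marks G1/S members, blue G2/M members and pink a member called by edgeR. Ccnd3 in KO is the 1 called value, and the widest intervals are those of Ccnd2.

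Set side by side, the 25 G1/S members had a median log2 fold change of 0.04, 0.16, 0.17 and 0.12 in HxD, KO, V and the mean of the mutants, and the 19 G2/M members one of 0.13, 0.17, 0.24 and 0.22. Above 0 were 16, 16, 20 and 18 of the 25 and 15, 14, 16 and 14 of the 19. Genes whose mean reached 20 CPM had medians of 0.04, 0.07, 0.05 and 0.05. The medians moved with single libraries. For G2/M, over the mean of the mutants the value was 0.07, with 12 of 19 above 0, without WT1, 0.12 without WT2 and 0.32 without WT3, while the G1/S median was 0.09, 0.12 and 0.13. The G2/M median over the mean was 0.15 without HxD3 and 0.14 without KO2. The HxD value for G2/M was 0.06 without WT1 and 0.25 without WT3, and the KO value 0.08 without WT1, 0.11 without WT2 and 0.29 without WT3. For G1/S the HxD value was -0.00049, with 12 of 25 above 0, without HxD1, 0.01 without WT1, 0.02 without WT2 and 0.07 without WT3, the KO value was 0.08 without WT1, and the V value was 0.09 without V3.

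A library's mean log2 CPM over the 25 G1/S members was 6.82, 6.87 and 6.89 in WT, 6.84, 6.92 and 6.87 in HxD, 6.85, 6.99 and 6.77 in KO and 6.98, 6.91 and 7.04 in V. Over the 19 G2/M members it was 7.44, 7.70 and 7.97, 7.88, 7.89 and 7.90, 7.85, 7.98 and 7.79 and 8.02, 7.92 and 7.93. WT1 was the lowest of the 12 libraries in the G2/M mean, followed by WT2, while WT3 was exceeded only by V1 and KO2. The difference, G2/M minus G1/S, was 0.626, 0.832 and 1.075 in WT, 1.046, 0.968 and 1.039 in HxD, 0.999, 0.989 and 1.022 in KO and 1.034, 1.012 and 0.896 in V, or 0.844 ± 0.225, 1.018 ± 0.043, 1.003 ± 0.017 and 0.981 ± 0.074 (SD, n = 3 each). As genes of different length enter both means, only its change between libraries can be read. The mutant means exceeded that of WT by less than the SD of the WT libraries, and WT3 had the highest difference of all 12. These scores were not tested.

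By gene, WT1 was the lowest of the 12 libraries for 11 of the 19 G2/M members and for 7 of the 25 G1/S members. The members above their own 12-library median were 3 of 19 G2/M genes in WT1, 4 in WT2 and 13 in WT3, and 8 to 12 in the mutant libraries. Of the G1/S genes they were 8, 6 and 14 of 25 in the WT libraries. The WT libraries were thus further apart in G2/M genes than the 9 mutant libraries were.

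**Figure D4:**
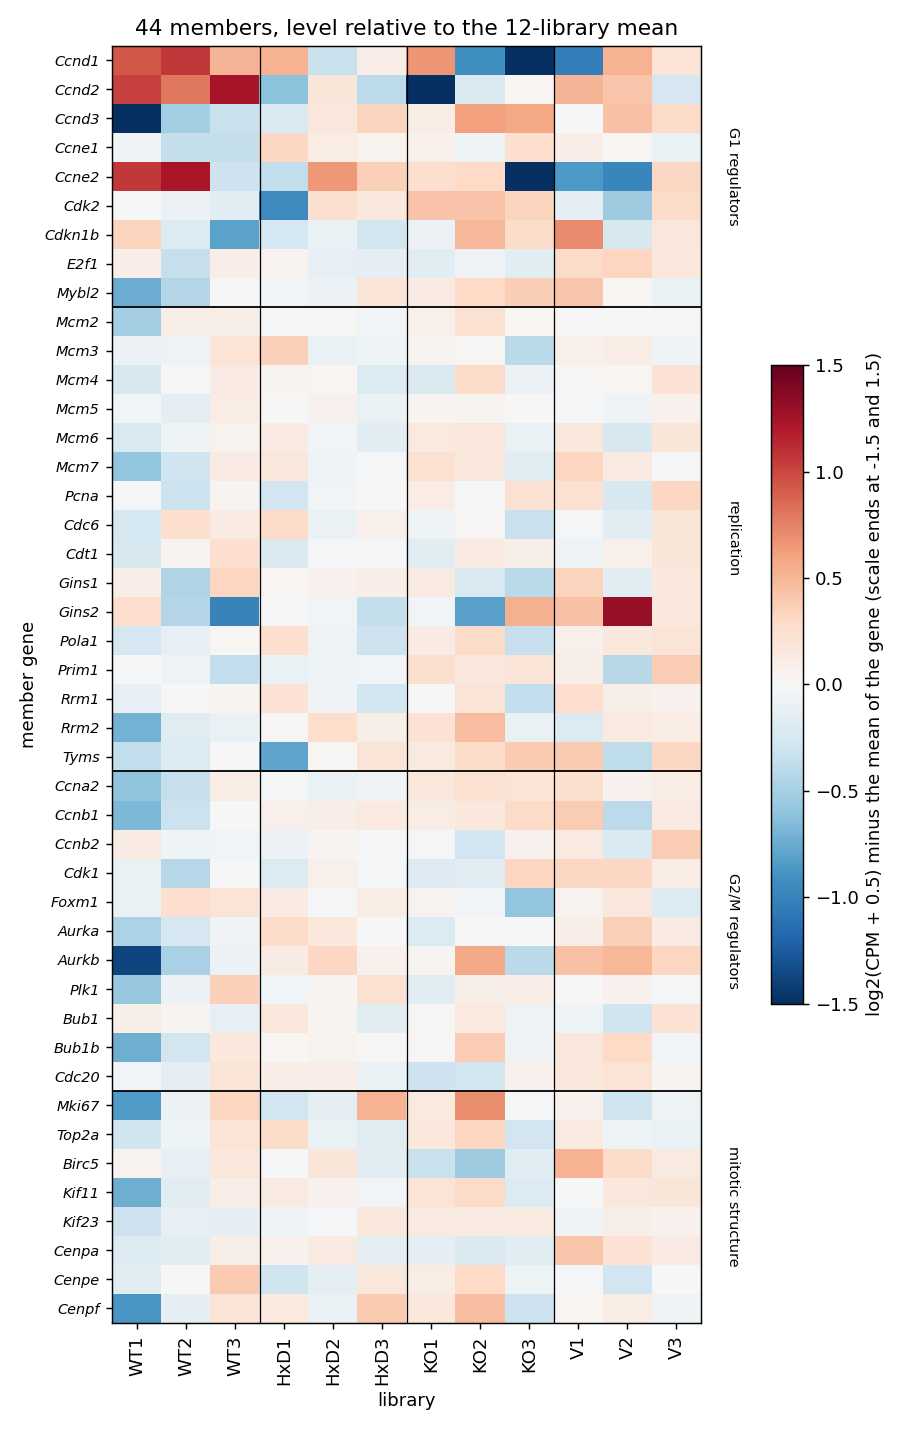
Level of the 44 members (rows, by role) in the 12 libraries (columns, by group) as log2(CPM + 0.5) minus the gene's mean over the libraries; red is above and blue below the mean, and values past the ends of the scale take the end colours. WT1 is blue through much of the G2/M rows, and the first 3 rows show the D-type cyclins.

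The WT libraries also differed in meiotic genes. The summed level of 20 genes of meiotic entry and prophase was 6663, 4585 and 3675 CPM in WT, 2765, 2355 and 2101 in HxD, 2499, 1715 and 2188 in KO and 1684, 2375 and 2597 in V. Dazl, also one of the germ cell markers above, made up 1923 CPM of this sum in WT1 and 608 CPM in KO2. Stra8, which drives meiotic entry, was at 977, 423 and 247 CPM in WT, 169, 175 and 74.6 in HxD, 73.9, 32.2 and 114 in KO and 45.8, 177 and 145 in V. Sycp3, of the synaptonemal complex, was at 183, 58.02 and 40.5 CPM in WT, 19.03, 27.3 and 20.1 in HxD, 17.4, 9.81 and 39.3 in KO and 20.7, 42.97 and 45.7 in V. The library with the most meiotic RNA, WT1, had the lowest mean of the G2/M members. WT3, with the least meiotic RNA of the 3 WT libraries, had the highest G2/M mean of those 3, below V1 and KO2. All 9 mutant libraries had less summed meiotic RNA than any WT library, while their G2/M means lay between 7.79 and 8.02. Meiotic genes called lower numbered 1 of 20 in HxD, 10 in KO, 4 in V and 12 over the mean of the mutants, against 0.0309%, 1.22%, 0.155% and 1.22% of all genes called in either direction. The 1 called in HxD was Dazl. What part this difference between WT libraries has in the fold changes of the members was not tested.

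**Figure D5:**
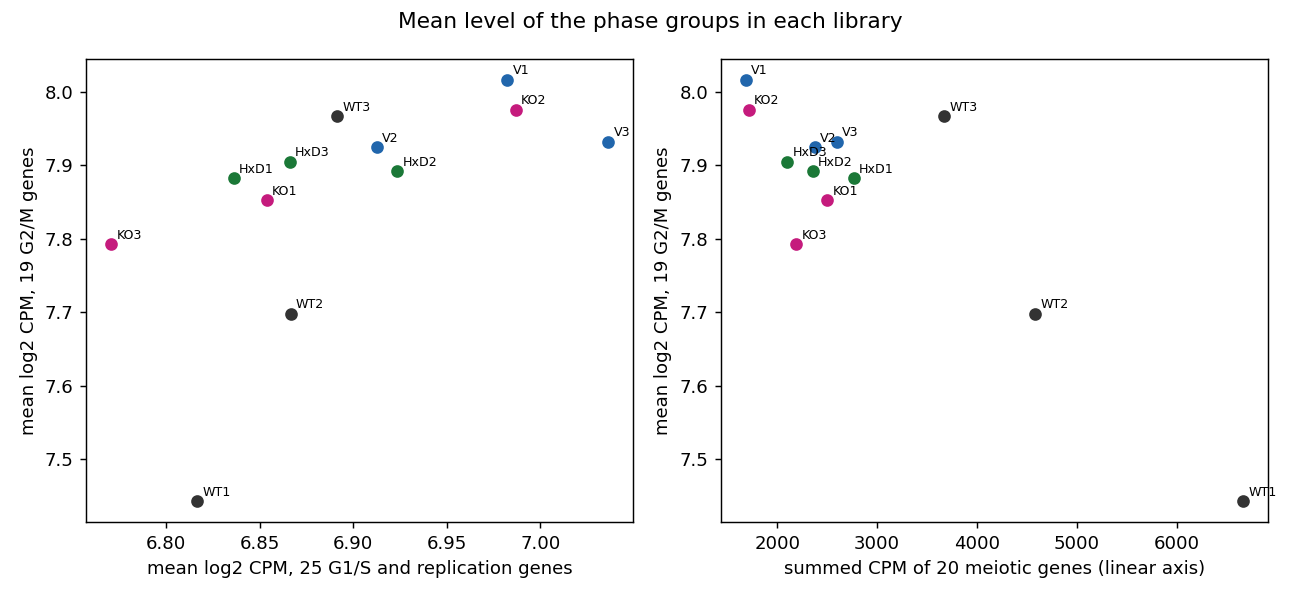
Mean log2 CPM of the 19 G2/M members in each library, against the mean of the 25 G1/S members (left) and against the summed CPM of 20 meiotic genes (right); black is WT, green HxD, pink KO and blue V. WT1 and WT2 lie below the mutants on the y axis and WT3 among them.

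Other genes of the same pathway came from lists that did not include the members. Of 50 other G1/S and replication genes, 0 were called in HxD, 1 in KO and 0 in V, where 0.0309%, 1.22% and 0.155% of all genes were. At an unadjusted p under 0.05 there were 6, 7 and 5, or 12%, 14% and 10% of the list, against 7.25%, 13.2% and 9.69% of all genes; DESeq2 called 1, 3 and 1 and limma-voom 0, 2 and 0. The 1 called in KO was Uhrf1, which brings DNMT1 to replicating DNA, and it fell by 1.02 ± 0.23 on the log2 scale (SE, edgeR adjusted p = 0.0223). Its group means were 98.1 CPM in WT, 51.7 in HxD, 48.5 in KO and 51.8 in V. The KO call was lost without KO1, KO2, WT1 or WT2, with edgeR adjusted p of up to 0.110. Its log2 fold change was then still between -0.98 and -0.90. It was also lost without the trio HxD1, KO1 and KO3, which leaves 1 KO library (-1.22, adjusted p = 0.122). Over the mean of the mutants Uhrf1 fell by 0.95 (edgeR adjusted p = 0.00430; 0.0744 without WT2), and Cdk4, the kinase partner of the D-type cyclins, rose by 0.65 (edgeR adjusted p = 0.0493). The Cdk4 call was lost in 12 alternatives, among them the removal of WT1 (0.50, adjusted p = 0.398).

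Of 51 other G2/M genes none was called by edgeR in HxD, KO, V or the mean of the mutants, with 4, 7, 6 and 5 at an unadjusted p under 0.05, against 7.25%, 13.2%, 9.69% and 13.2% of all genes. DESeq2 called 0, 0, 0 and 2, and limma-voom 0 in all 4. Their median log2 fold changes were 0.03, 0.11, 0.15 and 0.11, and those of the other G1/S genes -0.01, 0.02, 0.12 and 0.01. As for the members, the medians of the G2/M list were above those of all tested genes and small. Against genes whose mean reached 20 CPM (0.04, 0.07, 0.05 and 0.05), the HxD median of this list was lower and the others were higher.

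Cell cycle inhibitors and genes tied to p53 did include called ones. Of 15 such genes, 1 was called higher in HxD, 4 in KO, 1 in V and 2 over the mean of the mutants, and none was called lower. Of all genes, 0.0309%, 1.22%, 0.155% and 1.22% were called in either direction. Of the 15, 5, 5, 6 and 6 had log2 fold changes below 0, and 2 of these, the inhibitors Cdkn1c and Cdkn2d, were lower at an unadjusted p under 0.05 in each comparison without a call. Ccng1, a p53 target that encodes cyclin G1, was at 45.4, 38.2 and 49.03 CPM in WT, 117, 82.7 and 110.3 in HxD, 114, 97.3 and 149 in KO and 88.4, 83.9 and 105 in V, with all mutant libraries above WT. It rose by 1.22 ± 0.21, 1.44 ± 0.21 and 1.06 ± 0.21 on the log2 scale (SE), with edgeR adjusted p of 0.0153, 0.000653 and 0.0335. Cdkn1a, which encodes the CDK inhibitor p21, was at 46.96, 48.5 and 49.99 CPM in WT, 70.9, 75.7 and 109.5 in HxD, 81.5, 80.8 and 100.4 in KO and 102, 81.2 and 83.3 in V, again with all mutant libraries above WT. It rose in KO by 0.85 ± 0.21 (SE, edgeR adjusted p = 0.0395), and in HxD and V it was 0.82 ± 0.21 and 0.87 ± 0.21 without a call (0.234 and 0.0780); the KO call was lost in 11 alternatives. Gadd45a and Gtse1, a damage-induced gene and a G2 gene that binds p53, rose in KO by 1.22 ± 0.30 and 0.81 ± 0.21 (SE, edgeR adjusted p = 0.0419 and 0.0478). The call of Ccng1 was lost in HxD without HxD1 or HxD3 and when the mean had to reach 5 CPM, and in V without V1 or V3, by limma-voom, at that mean and with only the groups compared. Its log2 fold change stayed between 1.126 and 1.2003 in HxD and between 0.963 and 1.096 in V in those fits. In KO the list count was 2 without KO1 or KO2 (Ccng1 and Gadd45a) and 1 without KO3 or V3 (Ccng1). Without WT1 or without WT2 the list counts became 0, 1, 0 and 1, in each case Ccng1. Without the trio HxD1, KO1 and KO3, which leaves 1 KO library, they became 0, 0 and 1 in HxD, KO and V, and Ccng1 in KO was at 1.14, adjusted p = 0.0850.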

How the data were processed

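The deposited file holds raw counts from the authors, as whole numbers without normalization, for 35976 symbols in 12 library columns; groups and replicate numbers came from the sample titles. The submitters' processing notes name the aligner STAR 2.7.10b and the counter featureCounts 2.0.3, besides Trim Galore 0.6.7, SAMtools 1.9 and FastQC, and the builds GRCm39 and mm10 without roles. Annotation, strand setting and multiply mapped reads are not described there, so genes with near-identical copies or overlapping neighbours are uncertain. Reads carry no molecular identifiers.

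Counts were tested with edgeR 4.0.16 (R 4.3.3): default low-count filter, TMM scaling, 1 quasi-likelihood fit of all 12 libraries by group, 2-sided, Benjamini-Hochberg over 16166 genes, called at an adjusted p under 0.05, in 7 comparisons. DESeq2 1.42.0 and limma 3.58.1 were alternatives. Levels are TMM-scaled CPM, and log2 means used a prior count of 2. The edgeR step was tested on simulated data. Between replicates the chi-square divided by its degrees of freedom was 29.9 or more, far past sampling noise, and each library was counted once.

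The members and gene lists were chosen with earlier results of these data known. Members described in full were those called, the 2 with the smallest p per role in each mutant, and those with the largest and smallest SD per role; the others were given more briefly. Printed promoters were the 2 such members per phase with most motif kinds, ties taken by alphabet. Alternatives were other tools, scaling and filters, a replicate block, and libraries left out.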

Additional observations from a re-analysis of the deposited data

How the results depend on the processing

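The number of members called in HxD, KO, V and the mean of the mutants was 0, 1, 0 and 1. With no filter on low counts it was 1, 3, 2 and 3. DESeq2 gave 2 in KO and 1 in V, limma-voom gave 2 over the mean, and without the trio HxD1, KO1 and KO3 it was 0 in KO, then 1 library, and 2 over the mean. Leaving out 1 library at a time it ranged from 0 to 3 in KO, 0 to 2 in V and 0 to 3 over the mean, and it stayed 0 in HxD. In the 3 comparisons between mutants it was 0 in every setting. Same-numbered libraries correlated at -0.150 to 0.109 in 18 pairs, 1 over 0.1, and 3 of 12 libraries correlated best with their own number. No pairing by number was seen, but the labels do not give the meaning of the numbers, and low correlations do not settle it. With a replicate block 1 member was called in HxD and 1 in V (Ccnd3 in both), and the other counts were as before. More of all genes were called with the block in HxD, KO, V and the mean, as given below. With the median over members in place of the mean, the G2/M minus G1/S level was 0.40 in WT, 0.61 in HxD, 0.50 in KO and 0.47 in V. No log2 fold change that was followed across the settings changed sign. Those of Mcm5, Bub1 and Mki67, among others, were not followed. The G1/S median in HxD went from 0.04 to -0.00049 without HxD1 and without the trio.

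All genes called numbered 5, 197, 25 and 198. They numbered 84, 626, 268 and 632 by DESeq2, 15, 187, 20 and 346 by limma-voom, 71, 464, 176 and 429 with no filter, 1, 137, 5 and 197 when the mean had to reach 5 CPM, 22, 285, 73 and 250 with the replicate block, 6, 30, 16 and 207 without HxD1, KO1 and KO3, 1, 31, 10 and 29 without WT1, 1, 77, 5 and 44 without WT2 and 35, 357, 110 and 313 without WT3. DESeq2 called 34, 21 and 20 genes between HxD and KO, V and KO, and V and HxD. Low members rest on few counts in some libraries, Ccnd2 on 10 in KO1. The share of weakly expressed genes at 0 did not follow the total count: V1 had the lowest total (18471158) and 9.81% at 0, and HxD1 had 28410605 and 43.7%.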
